A study of Mus musculus with 28 samples.

Results

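Nuclear receptors are transcription factors, most of which are switched by small fat-soluble ligands. Steroid hormone receptors bind steroids; retinoic acid, thyroid hormone and vitamin D receptors and the lipid, bile acid and xenobiotic sensors mostly bind DNA as partners of the retinoid X receptors; orphan receptors have no settled natural ligand or act without one. In liver these proteins set the transcription of genes for fat oxidation and synthesis, bile acid handling, drug clearance and the fasting response, through coactivators and corepressors that they recruit. Their own mRNA level is only 1 layer of control, since ligand supply, partners and coregulators decide much of their activity. The expression of 39 listed mouse nuclear receptor genes was examined here. A gene was included where a probe set on the array names it and no other gene, and the probe set with the highest mean over all arrays would stand for a gene with several. Of the 39 genes, 36 had such a probe set, each of them exactly 1, among 18820 genes measured in this way. Thra, Nr1h2 and Nr1i3 were not analysed here. The 36 genes comprise 5 steroid hormone receptors, 3 retinoid X receptors, 5 receptors of retinoic acid, thyroid hormone or vitamin D, 5 lipid, bile acid and xenobiotic sensors, and 18 orphan receptors.

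The data are liver expression profiles of 28 male C57BL/6J mice on an intermittent diet, 1 mouse on each whole-transcript array. The diet switched weekly between moderate-fat food eaten freely, with 25% of energy from fat, and a restricted ration holding 60% of what control mice ate in energy. Mice of the switched group (n = 8) received moderate-fat food in every week up to the age of 12 months, changed to the alternation and were sampled at 24 months. The 3 lifelong groups began the alternation at 9 weeks of age. Livers came from 6 mice aged 6 months, 7 mice aged 12 months and 7 mice aged 24 months. Every mouse was fasted for 4 hours, given carboxymethyl cellulose into the stomach and fasted for 6 hours more. No control, calorie-restricted or continuous moderate-fat livers were analysed here, so the groups show age on the diet and the switch, not the diet itself. Age and time on the diet cannot be told apart in the lifelong groups, and the sources used here do not give the diet week in which a mouse was killed.

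Values are deposited log2 expression values, and a difference of 1 unit is a doubling. Array medians lay between 5.23 and 5.31, and Pearson's r between arrays was 0.978 to 0.992 across probe sets, which are not replicates of each other. The number of arrays limits the precision of each difference. Array names begin with G150, G151 or G152, and every group has livers under each prefix, with 1 or 2 livers of a group under G151 and under G152. The defining hepatocyte markers were bright in every group: Alb, the gene of serum albumin, had medians of 13.63 in the switched group, 13.67 at 6 months, 13.62 at 12 months and 13.59 at 24 months. The mean score of 11 hepatocyte markers stayed between -0.09 and 0.11 log2 units in all livers. In whole liver, fewer cells of a type and less RNA per cell cannot be told apart. Brightness of different probe sets is not comparable, so each gene is set only against itself.

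Counts of nuclear receptor genes that passed a test for age or for the switch are given beside the share over all genes. At 24 against 6 months, 1 of the 36 genes changed in limma, with the p-value adjusted over all 35556 probe sets and a threshold of 0.05. This was Nr4a2, which fell. In the same comparison 6.23% of all 18820 genes changed, 3.01% of them higher and 3.22% lower. At 12 against 6 months 0 of 36 receptor genes changed, beside 0.829% of all genes (0.542% higher and 0.287% lower). The counts were also 0 of 36 for 24 against 12 months and for the switched against the lifelong group at 24 months, beside 0.0266% of all genes in each. At an unadjusted p under 0.05, limma found 6, 5, 6 and 3 of the 36 in these 4 comparisons, beside 22.2%, 15.1%, 12.3% and 7.87% of all genes. A limma F test over the 4 groups together passed 3 receptor genes, Esrrg, Rara and Nr6a1, and 10.6% of all genes. Whether receptors pass less often than other genes was not tested.

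The intervals show how large a change in these values could have been missed. They use a spread for each gene that all groups share, so they hold only where a gene's spread is alike in the groups. For the receptors in the dimmest 30% of probe sets, named below, no detection call was made. A narrow interval there need not bound a change in mRNA. At 24 against 6 months the 36 differences ran from -0.54 for Nr4a2 to 0.53 for Esrrg, with 21 above 0, 15 below and a median of 0.02, and the median size was 0.0826, against 0.0932 over all genes. The 95% interval lay wholly within a 1.5-fold change in either direction for 34 of 36 receptors, and for 90.8% of all genes. The same held for 34 of 36 receptors at 12 against 6 months and 34 of 36 at 24 against 12 months, against 93.4% and 94.1% of all genes. For the switched against the lifelong group at 24 months it held for 36 of 36 receptors, against 96.2% of all genes, and the differences ran from -0.21 for Esrra to 0.12 for Rxrg. There 14 receptors lay above 0 and 22 below, with a median of -0.05 beside -0.0025 over all genes, and the median size was larger than that of all genes, 0.0792 against 0.0624. The median sizes were 0.0611 against 0.0815 at 12 against 6 months and 0.0689 against 0.0741 at 24 against 12 months. In each of the 4 comparisons 0 of 36 receptor genes had livers that did not overlap between the groups. Over all genes this share was 2.14% at 24 against 6 months, 0.994% at 12 against 6 months, 0.287% at 24 against 12 months and 0.0478% for switched against lifelong. The median SD within groups was 0.15 over the receptors and 0.162 over all genes.

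**Figure D1:**
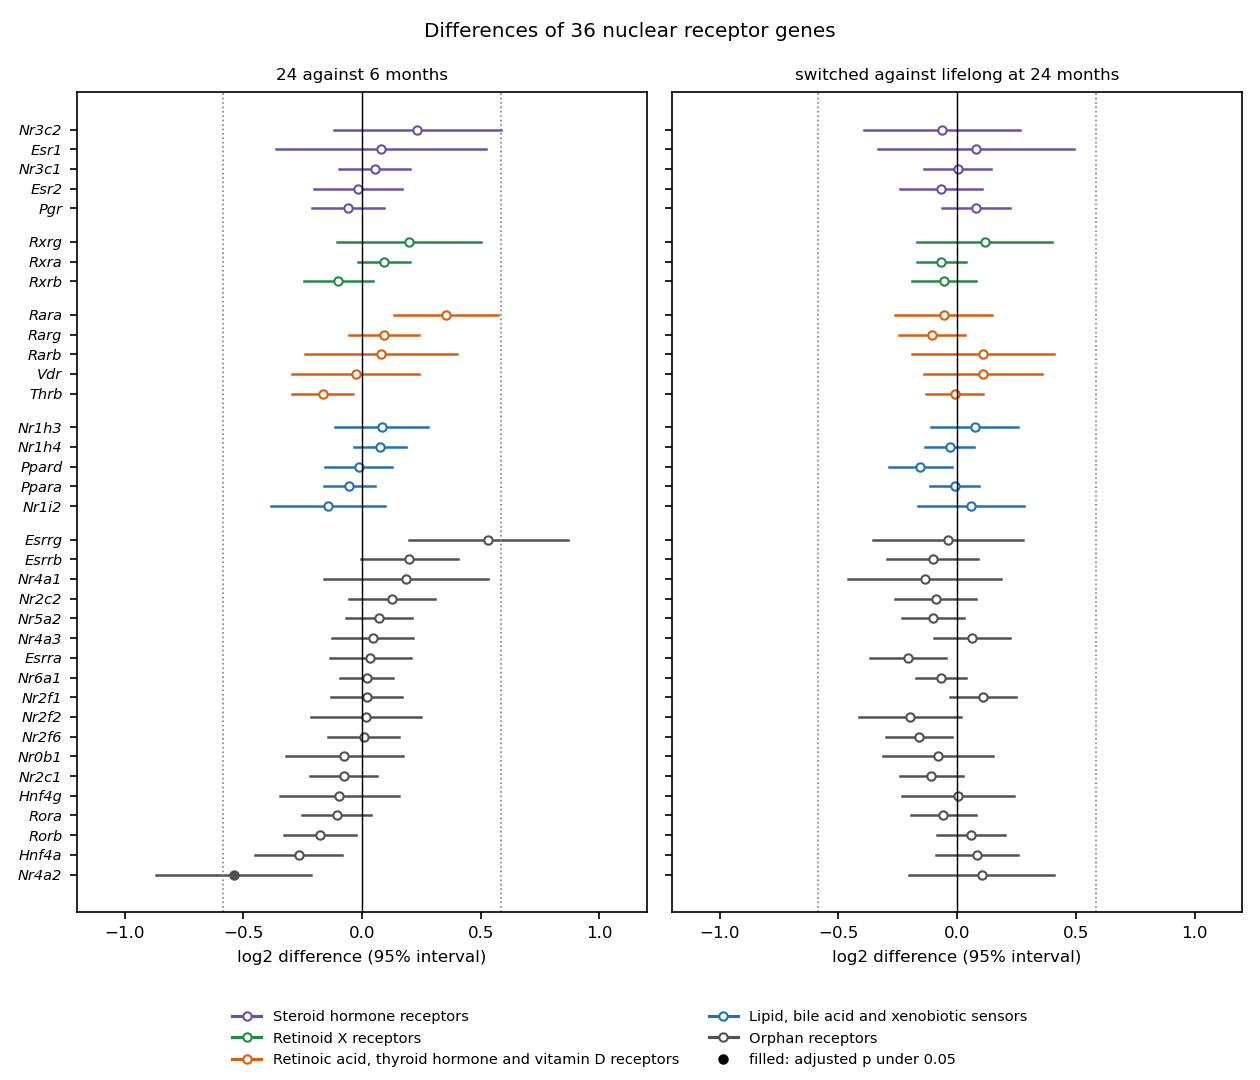
Differences in log2 expression of the 36 receptor genes, 24 against 6 months on the left and switched against lifelong at 24 months on the right. Points are limma estimates, lines are 95% intervals, colours are receptor classes and dotted lines mark a 1.5-fold change; the filled point, Nr4a2 at -0.54, is the only one past the adjusted threshold, and all 36 intervals on the right stay within the dotted lines.

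The steroid hormone receptors showed no call in any comparison. Nr3c1 encodes the glucocorticoid receptor, which drives the hepatic fasting and stress programmes. Its lowest, median and highest livers were 8.5, 8.8 and 8.83 in the switched group, 8.51, 8.68 and 9.04 at 6 months, 8.51, 8.74 and 8.92 at 12 months, with 8.73, 8.77 and 8.86 at 24 months. Its difference at 24 against 6 months was 0.05 (95% interval -0.10 to 0.20). Nr3c2, the mineralocorticoid receptor, differed by 0.23 between these ages, with a wide interval of -0.12 to 0.58. Esr1, the main estrogen receptor of liver, differed by 0.08 (-0.36 to 0.52) and had a pooled SD within groups of 0.406. That is the largest of the 36 genes and comes from the 6-month group, whose SD was 0.75, beside 0.18 in the switched group, 0.25 at 12 months and 0.30 at 24 months. The Esr1 interval rests on a spread shared by all groups, so it does not carry the wider spread at 6 months. The other estrogen receptor gene, Esr2, and the progesterone receptor gene, Pgr, were among 6 receptor genes in the dimmest 30% of probe sets, with Rorb, Hnf4g, Nr4a3 and Nr0b1. Esr2 lay between 3.45 and 4.16 and Pgr between 3.32 and 3.85 over all livers, and no detection call was made.

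The retinoid X receptors, the shared partners of the non-steroid sensors, also gave no call. Rxra, the main form in hepatocytes, had medians of 10.98 in the switched group, 10.93 at 6 months, 10.93 at 12 months and 11.04 at 24 months. Its difference at 24 against 6 months was 0.09 (95% interval -0.02 to 0.20). Rxrb ranged from 6.95 to 7.49 over all livers and differed by -0.10 (-0.24 to 0.05). Rxrg was the most variable of the 3: its livers spanned 7.61 to 7.84 in the switched group, 6.81 to 7.84 at 6 months, 7.13 to 7.65 at 12 months and 6.84 to 8.02 at 24 months. The Rxrg difference at 24 against 6 months was 0.20 (adjusted p = 0.509 in limma), and it passed when the liver of replicate 7 at 24 months was left out. Within prefixes G150, G151 and G152 this difference was 0.24, -0.99 and 0.94, so its sign was not the same in each. The switched livers thus lay in a narrow band near the top of the range for Rxrg, and the groups overlapped.

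Among the receptors for retinoic acid, thyroid hormone and vitamin D, Rara had its lowest median at 6 months. Rara encodes retinoic acid receptor alpha. Its lowest, median and highest livers were 7.67, 7.86 and 8.06 in the switched group, 7.24, 7.55 and 7.89 at 6 months, 7.82, 7.93 and 8.18 at 12 months, with 7.52, 7.96 and 8.16 at 24 months. At 12 months 7 of 7 livers were above the 6-month mean and 4 were above every 6-month liver; at 24 months these counts were 6 and 5 of 7. The F test over the 4 groups passed (limma, adjusted p = 0.0446). The single comparisons did not: 24 against 6 months differed by 0.35 (SE 0.11, 1.28-fold, adjusted p = 0.0543) and 12 against 6 months by 0.42 (SE 0.11, 1.34-fold, adjusted p = 0.0655). Within prefixes G150, G151 and G152 the difference at 24 against 6 months was 0.32, -0.01 and 0.71, and that at 12 against 6 months was 0.30, 0.48 and 0.76. Of 28 fits that each left out 1 liver, 10 passed the F test for Rara: those without replicates 1 or 5 at 6 months, 2 at 12 months, 4, 5 or 7 at 24 months, or 2, 3, 5 or 6 of the switched group.

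Rarg and Rarb, the gamma and beta retinoic acid receptors, differed at 24 against 6 months by 0.09 (95% interval -0.05 to 0.24) and 0.08 (-0.24 to 0.40). Thrb, the main hepatic thyroid hormone receptor, had medians of 8.28 in the switched group, 8.44 at 6 months, 8.43 at 12 months and 8.32 at 24 months. The difference at 24 against 6 months was -0.16, with 6 of 7 livers under the 6-month mean, and did not pass (limma, adjusted p = 0.126). Vdr, the vitamin D receptor, lay between 3.83 and 4.81 over all livers and differed by -0.03 (-0.29 to 0.24).

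The 5 lipid, bile acid and xenobiotic sensors gave no call in any comparison. Ppara, the fatty acid sensor that turns on fat oxidation in fasting, spanned 11.12 to 11.38 in the switched group, 11.18 to 11.4 at 6 months, 11.16 to 11.38 at 12 months and 11.21 to 11.37 at 24 months. Its differences were -0.05 for 24 against 6 months (95% interval -0.16 to 0.06), -0.06 for 12 against 6 months (-0.17 to 0.04) and -0.01 for switched against lifelong (-0.11 to 0.09). Each of these intervals excludes a 1.5-fold change. Nr1h3, the oxysterol receptor LXR alpha, and Nr1h4, the bile acid receptor FXR, each differed by 0.08 at 24 against 6 months, with intervals of -0.11 to 0.28 and -0.04 to 0.19. Nr1i2, the xenobiotic receptor PXR, differed by -0.14 (-0.38 to 0.10).

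Ppard, a fatty acid sensor of the same subfamily as Ppara, was among the 3 genes with the smallest p in the comparison of the switched with the lifelong group. Its lowest, median and highest livers were 7.48, 7.71 and 7.81 in the switched group and 7.74, 7.81 and 8.04 in the lifelong group at 24 months. It ranged from 7.68 to 8.02 at 6 months and from 7.54 to 7.92 at 12 months. All 8 switched livers lay below the lifelong mean and 6 lay below every lifelong liver, but the difference of -0.15 (SE 0.06) did not pass (limma, adjusted p = 0.583). Within the 3 prefixes it was -0.16, -0.07 and -0.29.

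Nr4a2 belongs to the NR4A subfamily with Nr4a1 and Nr4a3, orphan receptors that act without a classical ligand. They are known as immediate-early genes, switched on within a short time by cyclic AMP, stress and other signals through CREB sites in their promoters. The 3 promoters (RefSeq, mouse build GRCm38.p6, 250 bases before to 50 after the start) are shown because the NR4A genes share this known input. Its part in the values here was not tested. Capitals mark the CREB half-site CGTCA or its reverse complement TGACG, sought on both strands. Each of the 3 holds 4 matches that do not overlap. At least 1 match is found in 20.8% and at least 4 in 0.2% of 32851 mouse promoters of this length. The first sequence is chr15:101266596-101266895 on the plus strand, the second chr2:57123954-57124253 on the minus strand and the third chr4:48045055-48045354 on the plus strand.
Nr4a1: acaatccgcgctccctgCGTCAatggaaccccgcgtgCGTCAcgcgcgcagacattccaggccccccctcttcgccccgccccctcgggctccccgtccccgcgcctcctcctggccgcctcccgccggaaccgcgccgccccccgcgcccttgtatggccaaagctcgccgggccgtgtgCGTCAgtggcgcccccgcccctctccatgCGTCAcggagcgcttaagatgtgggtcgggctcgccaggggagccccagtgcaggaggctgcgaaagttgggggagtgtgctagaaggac
Nr4a2: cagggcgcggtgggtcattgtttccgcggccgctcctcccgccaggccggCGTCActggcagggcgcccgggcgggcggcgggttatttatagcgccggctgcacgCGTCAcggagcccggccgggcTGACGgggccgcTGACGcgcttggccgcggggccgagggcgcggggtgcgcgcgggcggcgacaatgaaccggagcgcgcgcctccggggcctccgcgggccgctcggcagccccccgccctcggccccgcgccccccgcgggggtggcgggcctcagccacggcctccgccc
Nr4a3: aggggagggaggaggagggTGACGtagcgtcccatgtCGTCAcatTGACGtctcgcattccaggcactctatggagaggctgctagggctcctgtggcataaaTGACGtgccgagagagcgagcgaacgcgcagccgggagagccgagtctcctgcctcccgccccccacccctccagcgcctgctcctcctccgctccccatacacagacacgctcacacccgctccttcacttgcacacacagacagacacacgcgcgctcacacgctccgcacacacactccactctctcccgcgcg

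The lowest, median and highest livers of Nr4a2 were 5.54, 5.67 and 6.08 in the switched group, 5.59, 6.19 and 6.74 at 6 months, 5.6, 5.72 and 6.03 at 12 months, with 5.29, 5.56 and 6.09 at 24 months. The 6-month group was the high and scattered one, with an SD of 0.52 (n = 6) beside 0.2 in the switched group (n = 8), 0.17 at 12 months and 0.26 at 24 months (n = 7 each). Nr4a2 fell by 0.54 at 24 against 6 months (SE 0.16, 1.45-fold lower, limma adjusted p = 0.0487). This SE and p rest on a spread shared by all groups, which is smaller than that of the 6-month group. With only the groups compared Nr4a2 did not pass. It did not pass the limma F test over all groups either (adjusted p = 0.101). All 7 livers at 24 months were below the 6-month mean and 4 were below every 6-month liver. That mean, 6.16, falls in a gap between 6-month livers at 5.88 and 6.49. The 6-month livers at 5.59, 5.63 and 5.88 lie within the range at 24 months. At 12 against 6 months the difference was -0.38 (adjusted p = 0.286), at 24 against 12 months -0.15 (adjusted p = 0.758), and for switched against lifelong 0.10 (adjusted p = 0.929). Within prefixes the 24 against 6 month difference was -0.48, -1.33 and -0.07. The call rests on single livers: it was kept in 4 of 13 fits that left out 1 liver and lost without any of replicates 2, 3 or 4 at 6 months (adjusted p = 0.111, 0.136 and 0.142) or any of 6 livers at 24 months (all but replicate 3). The difference stayed between -0.66 and -0.42 in those 13 fits.

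Nr4a1 had lowest, median and highest livers of 5.26, 5.51 and 6.17 in the switched group and 5.2, 5.48 and 6.0 at 6 months. They were 5.05, 5.24 and 5.9 at 12 months and 4.91, 5.7 and 6.22 at 24 months. The Nr4a1 difference at 24 against 6 months was 0.19 (95% interval -0.16 to 0.53). Its sign was opposite to that of Nr4a2, but the interval includes 0 and the genes were not tested against each other. Nr4a3 was dim, between 3.2 and 3.78, and differed by 0.04 (-0.12 to 0.21) at 24 against 6 months. At 12 against 6 months the differences were -0.16 for Nr4a1 and -0.14 for Nr4a3, below 0 like that of Nr4a2, and neither passed. Of the 13 other immediate-early genes measured, 1 changed at 24 against 6 months, beside 6.23% of all genes. Dusp1, a phosphatase gene that inactivates MAP kinases, fell by 0.58 (limma, adjusted p = 0.0345), and the list's median difference was 0.05. Dusp1 is also a glucocorticoid target and is counted in that list too.

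Esrrg had the smallest adjusted p of the F test among the 36 receptors (limma, adjusted p = 0.0303). It encodes estrogen-related receptor gamma, an orphan receptor known for driving oxidative and fasting metabolism. Its lowest, median and highest livers were 6.72, 7.2 and 7.56 in the switched group, 6.28, 6.77 and 7.04 at 6 months, 6.34, 6.71 and 7.23 at 12 months, with 6.88, 7.24 and 7.66 at 24 months. Both groups sampled at 24 months were therefore at similar levels, above the younger livers with overlap. Esrrg at 24 months differed by 0.53 from 6 months (SE 0.16, 1.45-fold, adjusted p = 0.0577) and by 0.51 from 12 months (SE 0.16, 1.42-fold, adjusted p = 0.2), and neither difference passed. All 7 livers at 24 months were above the 6-month mean, 5 of them above every 6-month liver, and all 7 were above the 12-month mean. The switched group differed from the lifelong group by -0.04 (95% interval -0.35 to 0.28). Within prefixes the difference at 24 against 6 months was 0.60, 0.30 and 0.43, and that at 24 against 12 months was 0.72, -0.18 and 0.66. The F test passed in 24 of 28 fits without 1 liver and did not pass without replicates 3 or 4 at 6 months or replicates 3 or 4 at 12 months.

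Its relative Esrra, estrogen-related receptor alpha, a regulator of mitochondrial genes, was low in different groups. Esrra lay at 6.82, 7.2 and 7.39 (lowest, median and highest) in the switched group, 7.21, 7.33 and 7.46 at 6 months, 7.01, 7.13 and 7.32 at 12 months, with 7.18, 7.36 and 7.57 at 24 months. In the switched group 7 of 8 livers were below the lifelong 24-month mean, a difference of -0.21 (SE 0.08, adjusted p = 0.517). At 12 months 6 of 7 livers were below every 6-month liver, a difference of -0.20 (adjusted p = 0.285), and 24 against 12 months differed by 0.24 (adjusted p = 0.245). None of these passed in limma, nor did the F test over the groups (adjusted p = 0.0956). Within prefixes the switched against lifelong difference was -0.16, -0.09 and -0.47. Esrrb, the third member of the subfamily, lay between 3.78 and 4.49 and differed by 0.20 at 24 against 6 months (95% interval -0.01 to 0.40).

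Nr6a1, the germ cell nuclear factor, passed the F test narrowly (limma, adjusted p = 0.0496), and the high group was that at 12 months. Its lowest, median and highest livers were 6.81, 6.95 and 7.11 in the switched group, 6.92, 6.98 and 7.25 at 6 months, 7.05, 7.2 and 7.31 at 12 months, with 6.95, 7.0 and 7.19 at 24 months. The difference was 0.16 (SE 0.05) for 12 against 6 months, with 7 of 7 livers above the 6-month mean, and -0.14 (SE 0.05) for 24 against 12 months. Neither passed in limma (adjusted p = 0.181 and 0.31). The 12 against 6 month difference was 0.19, 0.04 and 0.16 within prefixes, and the F test passed in 7 of 28 fits without 1 liver. These were the fits without replicate 4 at 6 months, 4 or 7 at 12 months, 2, 5 or 7 at 24 months, or 3 of the switched group.

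Hnf4a, which encodes a master regulator of hepatocyte identity, was the receptor with the next smallest p at 24 against 6 months. It lay at 11.61, 11.8 and 12.09 in the switched group, 11.9, 11.95 and 12.19 at 6 months, 11.72, 11.8 and 12.0 at 12 months, with 11.57, 11.76 and 12.04 at 24 months. At 24 months 6 of 7 livers were below every 6-month liver, and the difference of -0.27 (SE 0.09) did not pass (limma, adjusted p = 0.0815). Within prefixes it was -0.23, 0.08 and -0.56. Of 12 measured HNF4A target genes 0 changed at 24 against 6 months, and the target with the smallest p was Apob, the core protein of secreted lipoproteins, at -0.13 (adjusted p = 0.0945).

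Nr2f6, an orphan of the COUP-TF group, was lower in 7 of 8 switched livers than the lifelong 24-month mean. It had medians of 7.99 in the switched group and 8.15 in the lifelong group at 24 months, 8.15 at 6 months and 8.08 at 12 months. The switched against lifelong difference was -0.16 (SE 0.07) and did not pass (limma, adjusted p = 0.586), with -0.19, 0.03 and -0.25 within prefixes. Nr2f2 ranged from 8.17 to 9.08 and Nr2f1, also of this group, from 4.04 to 4.6. Nr5a2, the bile acid and lipid regulator LRH-1, had medians of 9.36 in the switched group, 9.44 at 6 months, 9.55 at 12 months and 9.44 at 24 months. The testicular receptor genes Nr2c1 and Nr2c2 lay between 7.84 and 8.38 and between 8.07 and 8.69, and Rora, a receptor of the clock's feedback loop, between 9.08 and 9.64. Rorb lay between 3.56 and 4.07, Hnf4g between 3.59 and 4.38, and Nr0b1 between 2.87 and 3.73. None of the orphan receptors in this group of genes changed in any of the 4 comparisons or in the F test.

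**Figure D2:**
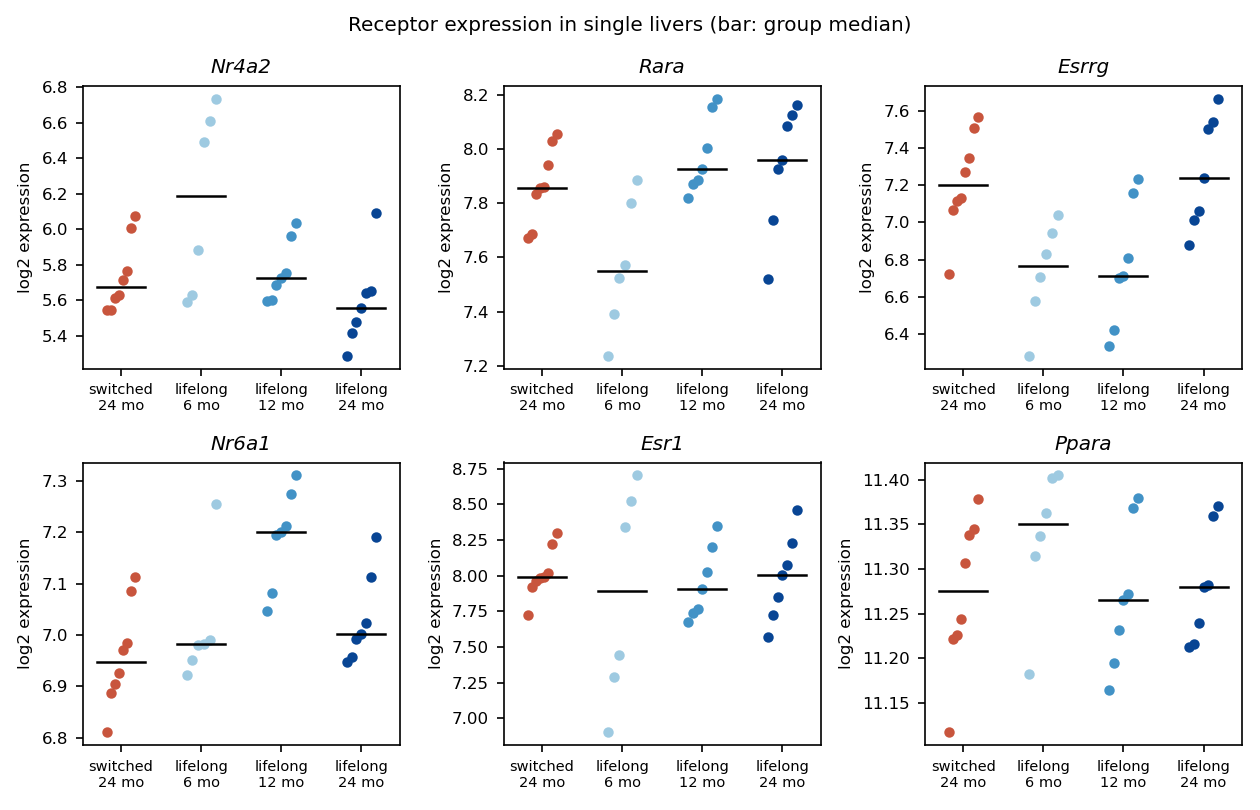
Log2 expression of Nr4a2, Rara, Esrrg, Nr6a1, Esr1 and Ppara in single livers (dots) with the group median (bar), groups from left to right switched at 24 months and lifelong at 6, 12 and 24 months; each panel has its own axis. The 6-month livers reach 6.74 for Nr4a2 and span 6.9 to 8.7 for Esr1, and Ppara stays between 11.12 and 11.4 in every liver.

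**Figure D3:**
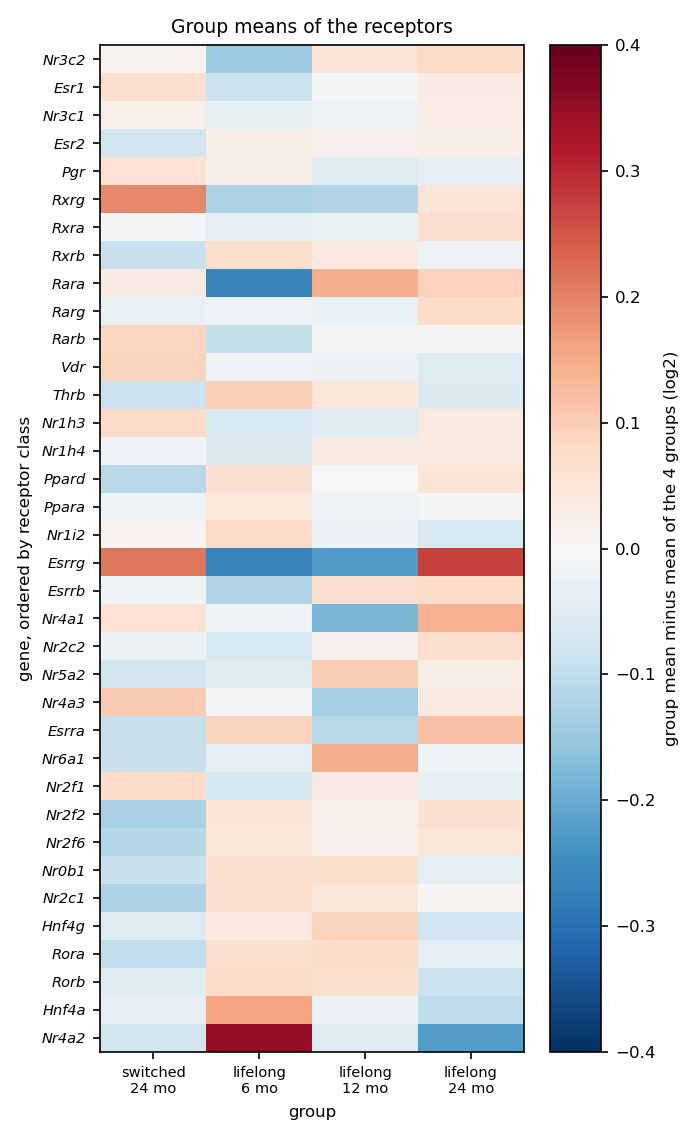
Group mean of each receptor gene minus the mean of its 4 group means, in log2 units, with genes ordered by receptor class. Most cells are pale, and the deepest belong to Nr4a2, Rara and Esrrg.

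The 6-month livers were not alike. The PPARA target score, which averages the deviations of 18 measured target genes from their means over the arrays, was -0.35, 0.76, 0.79, 0.8, 0.05 and -0.28 in the 6-month replicates 1 to 6. Nr4a2 was 5.63, 6.49, 6.74, 6.61, 5.88 and 5.59 in the same livers. Esr1 was 8.7, 7.29, 6.9, 7.45, 8.34 and 8.53. Replicates 2, 3 and 4 were thus the 3 highest for the target score and for Nr4a2 and the 3 lowest for Esr1, with a gap on either side. They were also the 3 highest for Nr2c1 (8.38, 8.24 and 8.32, against 7.99, 8.13 and 8.1) and for Nr1i2 (10.4, 10.44 and 10.39, against 10.14, 10.22 and 10.01). Ppara itself was 11.34, 11.36, 11.4, 11.4, 11.31 and 11.18, a much smaller span. Replicates 2, 3 and 4 were again the 3 highest, by a narrow margin over replicate 1 (11.36 against 11.34). This pattern was chosen after the values were seen, and no correlation is given because the livers fall into separate clusters. Replicates 2 and 3 carry prefix G150 and replicate 4 carries G151. The week of the diet cycle is not known for any mouse, and its part in the split was not tested.

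**Figure D4:**
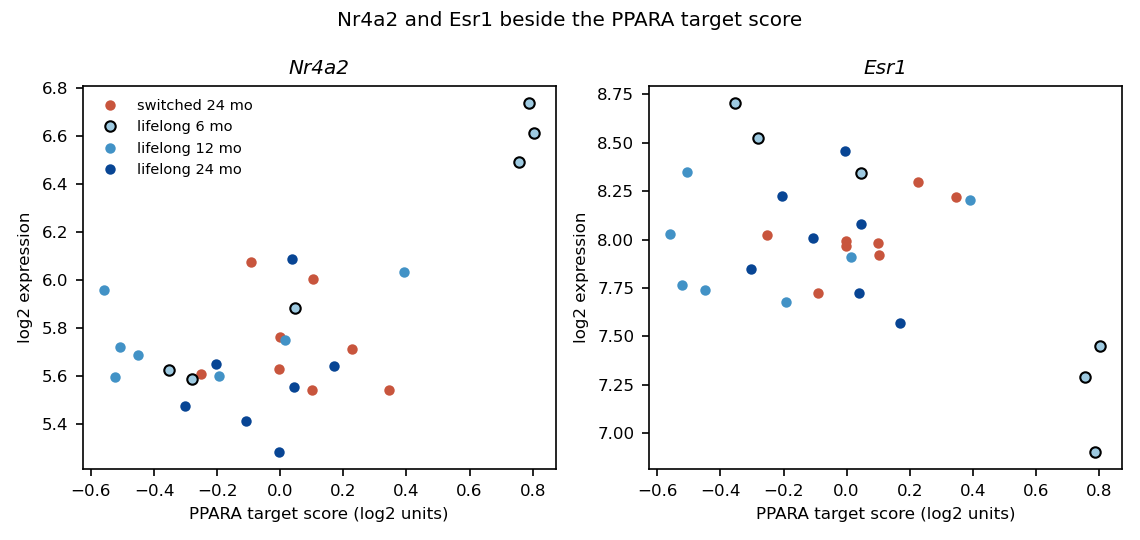
Log2 expression of Nr4a2 (left) and Esr1 (right) against the PPARA target score of the same liver, in log2 units; dots are livers, coloured by group, and outlined dots are the 6-month livers. The 3 livers with scores of 0.76 to 0.8 have the highest Nr4a2 values and the lowest Esr1 values of all 28.

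The lists of known target genes held between 0 and 5 calls each at 24 against 6 months. Beside the list counts here and below stand 6.23% of all genes in that comparison and 0.829% at 12 against 6 months. No list was tested as a set. At 24 against 6 months 1 of 18 PPARA targets fell, Hadhb, which encodes part of the trifunctional protein of mitochondrial fat oxidation, by 0.36 (limma, adjusted p = 0.0288), with a list median of -0.23 beside -0.0016 over all genes. At 12 against 6 months 3 of 18 fell: Hadhb by 0.46 (adjusted p = 0.033), Ehhadh, the peroxisomal bifunctional enzyme, by 1.16 (adjusted p = 0.0458) and Cyp4a31, a fatty acid hydroxylase, by 0.92 (adjusted p = 0.0463). Ehhadh had lowest, median and highest livers of 10.67, 11.06 and 12.3 at 12 months against 11.36, 12.45 and 13.08 at 6 months. The 6-month livers, described above, spanned scores of -0.35 to 0.8 for this list.

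Of 16 targets of PXR and its relative CAR, 2 rose at 24 against 6 months, both glutathione transferases: Gstm2 by 0.68 (limma, adjusted p = 0.0164) and Gstm3 by 0.45 (adjusted p = 0.018), with a list median of 0.14. Gstm2 had lowest, median and highest livers of 8.93, 9.42 and 9.75 at 24 months against 8.38, 8.78 and 8.94 at 6 months, with almost no overlap. For the switched against the lifelong group 0 of 16 passed, and the list median was 0.29 beside -0.0025 over all genes; Cyp3a11, a drug-metabolising cytochrome, differed by 0.46 (adjusted p = 0.229) and Cyp2c55 by 0.65 (adjusted p = 0.235). Of 12 LXR targets 1 rose at 24 against 6 months, the desaturase gene Scd1, by 0.20 (adjusted p = 0.0184). Of 9 FXR targets 1 fell, the phospholipid exporter gene Abcb4, by 0.32 (adjusted p = 0.0332). Of 7 thyroid hormone targets 0 passed; the smallest p belonged to Gpd2 at -0.43 (adjusted p = 0.18) and Dio1 at -0.25 (adjusted p = 0.191).

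Glucocorticoid targets moved both ways, with 2 higher and 3 lower of 17 at 24 against 6 months, although Nr3c1 had an interval within -0.10 to 0.20. Over all genes 3.01% were higher and 3.22% lower. Mt2, a metallothionein gene, rose by 2.09 (limma, adjusted p = 0.00374), and Lcn2, an acute-phase iron-siderophore binder, by 2.08 (adjusted p = 0.0335). Tsc22d3, which encodes the glucocorticoid-induced leucine zipper, fell by 0.71 (adjusted p = 0.018), with livers of 8.29 to 8.89 at 24 months against 8.55 to 9.6 at 6 months. Dusp1 fell by 0.58 and Tat, a tyrosine-degrading enzyme gene that also counts as a hepatocyte marker, by 0.42 (adjusted p = 0.0355). The list median was -0.40. In the other 3 comparisons 0 of 17 passed in limma.

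Coregulator genes gave 0 calls of 15 in each of the 4 comparisons. Lcor, a ligand-dependent corepressor, had the smallest p at 24 against 6 months, with medians of 7.99 at 24 months and 8.26 at 6 months, a difference of -0.24 (limma, adjusted p = 0.0515). Hdac3, the histone deacetylase of the NCoR complex, followed with 0.19 (adjusted p = 0.189). Markers of other liver cells moved with age too: 5 of 7 B and plasma cell markers rose at 24 against 6 months, with a list median of 0.84, and the list score had medians of 0.51 in the switched group, -0.73 at 6 months, -0.54 at 12 months and 0.79 at 24 months. Of 11 Kupffer cell and macrophage markers 0 passed, with a median of 0.36; of 14 stellate markers 1 rose, Ngfr, with a median of 0.04; of 11 hepatocyte markers 1 fell, Tat, with a median of -0.05. Of 10 sinusoidal endothelial, 7 cholangiocyte and 8 T and NK cell markers 0 passed. The part of these cells in the receptor differences was not tested.

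The retinoic acid list holds genes that retinoic acid is known to induce, several of which clear or store vitamin A. Cyp26a1, the enzyme gene that clears retinoic acid and is itself induced by it, rose by 0.77 at 24 against 6 months (SE 0.20, limma, adjusted p = 0.0263), the only call among 7 targets, and the list median was 0.01. Its lowest, median and highest livers were 4.67, 5.09 and 5.45 in the switched group, 3.56, 4.25 and 4.76 at 6 months, 4.48, 4.82 and 5.42 at 12 months, with 4.24, 5.17 and 5.59 at 24 months. The 6-month group was thus lowest for both Cyp26a1 and Rara. Cyp26b1, a second clearing enzyme, did not share this order, with medians of 6.41 in the switched group, 6.65 at 6 months, 6.86 at 12 months and 6.18 at 24 months, and 24 against 12 months differed by -0.69 (adjusted p = 0.0946).

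Rarb is known as a direct target of the retinoic acid receptors through a DR5 element, a pair of direct repeats 5 bases apart. The part of its promoter around that element is shown because Rarb is set against the mean score of other retinoic acid targets below (RefSeq, GRCm38.p6, chr14:16575492-16575548, minus strand). Capitals mark a match to GTTCACNNNNNGTTCAC, sought on both strands. This motif takes both repeats as they stand in the Rarb element, so its match in Rarb is given by construction. Among 32851 promoters 2, or 0.00609%, hold this exact form. Other forms of a DR5 element were not sought, so the share with any DR5 element is not known.
Rarb: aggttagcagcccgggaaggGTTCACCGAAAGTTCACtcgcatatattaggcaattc

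Receptor mRNA was set against the score of its target list over the 28 livers, after group means and prefix effects had been removed, for 9 receptor and list pairs. The lists were chosen with earlier results of these data known, which the p-values do not allow for. Rarb and the retinoic acid targets had a Pearson's r of 0.70 and a Spearman's rho of 0.67 (permutation p = 0.0003, two-sided, adjusted p = 0.0027 over the 9 pairs). An r at least as far from 0 with this score was found for 0.0213% of all genes. Leaving out the 2 livers farthest from the median in Rarb left r at 0.70, and leaving out any 1 liver gave 0.61 to 0.76. In the 18 livers of prefix G150 r was 0.46 and did not pass (permutation, adjusted p = 0.292). Without the 2 livers at 24 months that lay lowest in both values, replicates 3 and 7, it was 0.45 (permutation p = 0.0256); these livers were chosen after the values were seen. Taken singly, r with Rarb was 0.54 for Cyp26a1, 0.50 for Cyp26b1, 0.43 for the retinol esterifier gene Lrat, 0.31 for Dhrs3, 0.15 for Tgm2, -0.01 for Stra6 and -0.06 for Crabp2. Of these 7 targets only Cyp26a1 passed after adjustment (permutation, adjusted p = 0.0465). The stellate cells that store vitamin A express Rarb and Lrat: without Lrat the score gave r = 0.67, and a score of 14 stellate cell markers had r = 0.17 with Rarb (permutation p = 0.4). The part of stellate cells in the relation was not tested.

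Of the other 8 pairs, 2 passed. Nr1i2 and the CAR and PXR targets had r = 0.51 and rho = 0.44 (permutation, adjusted p = 0.0285 for r and 0.0971 for rho), with as large an r for 1.78% of all genes. Without the 2 livers farthest in Nr1i2 it was 0.37 (permutation p = 0.0408, adjusted p = 0.122), so that the call, though not the sign, rests on them. Leaving out any 1 liver gave 0.44 to 0.60. Ppara and its targets had r = 0.48 and rho = 0.43 (permutation, adjusted p = 0.0454 for r and 0.0971 for rho), and 7.3% of all genes had as large an r; without the 2 farthest livers it was 0.49 (adjusted p = 0.0406). Leaving out replicate 1 at 12 months gave r = 0.41 and a permutation p of 0.0502. The lowest r on leaving out any 1 liver was 0.39, without replicate 6 at 6 months. For the PPARA target score the 6-month livers fall into separate clusters, as described above. Their part in the Ppara relation was not tested. In prefix G150 alone r was 0.44 for Nr1i2 and 0.43 for Ppara (permutation, adjusted p = 0.292 each). The remaining 6 receptors gave no relation past the threshold: r was 0.17 for Nr1h3, 0.11 for Nr1h4, 0.06 for Thrb, -0.31 for Nr3c1, -0.19 for Hnf4a and 0.34 for Nr4a1 with the immediate-early genes.

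**Figure D5:**
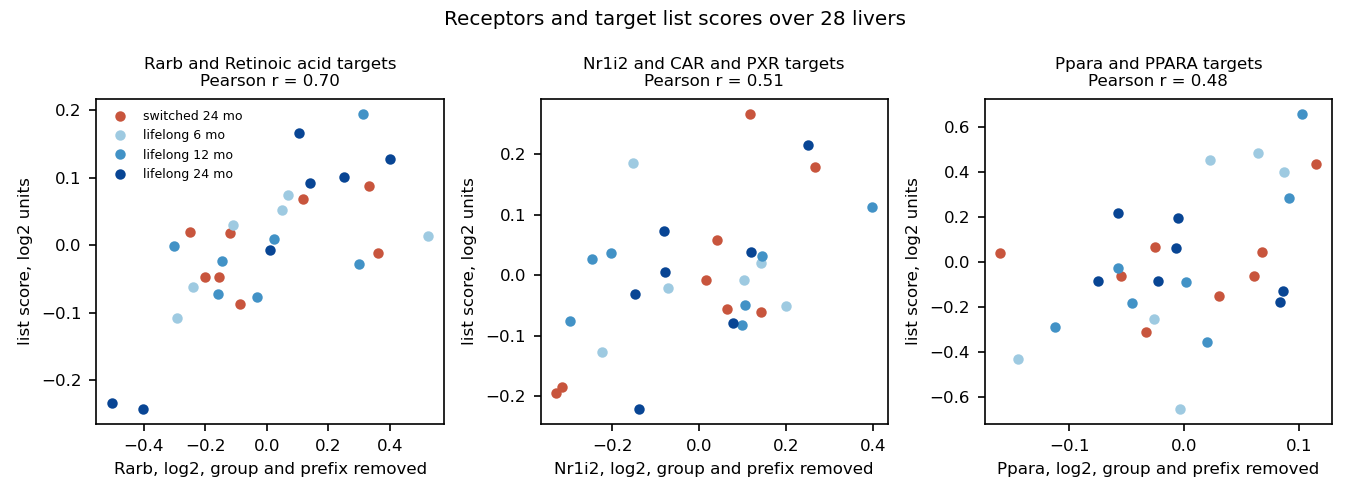
Score of the target list against the receptor's log2 expression over 28 livers, both with group means and array prefix effects removed, for Rarb (left, r = 0.70), Nr1i2 (middle, r = 0.51) and Ppara (right, r = 0.48); dots are livers, coloured by group. In the left panel the 2 livers at the lower left are replicates 3 and 7 of the lifelong 24-month group.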

How the data were processed

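Liver RNA (integrity number above 8.0) was hybridised to single-colour arrays, 1 for each of 28 mice. The authors deposited log2 expression values made with RMA, per the submitters' processing notes; its version, and whether all arrays shared 1 run, are not given in the sources used here. Of 35556 probe sets, 21218 name exactly 1 gene. All arrays entered 1 limma 3.58.1 fit (R 4.3.3) with group and array name prefix as fixed terms. Differences and the F test were two-sided, with Benjamini-Hochberg adjustment over all probe sets at 0.05 and 95% intervals. No probe set was filtered out. Correlations used 100000 permutations within groups. The members and the 18 lists were chosen with earlier results of these data known. Receptors that passed a test, or had the 3 smallest p in a comparison, are given in full; from a list, up to 4 genes that passed or the 2 with the smallest p. Esr1, Hnf4a, Rarb, Cyp26b1 and the 6-month split were chosen after values were seen. Replicate numbers gave no pairing. The scripts (Python 3.11.15, pandas 2.3.3, numpy 2.4.6, matplotlib 3.10.9) were tested on simulated data.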

Additional observations from a re-analysis of the deposited data

Results flagged for a closer look

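In 9 of 144 sets of a receptor gene in a group, 1 liver stood farther from its nearest neighbour than Dixon's test allows at 95%, a criterion that chance meets in about 5% of groups. Among the dim receptors, Esr2 was 3.59 in replicate 2 at 6 months (nearest liver 3.77), Pgr 3.85 in replicate 7 of the switched group (nearest 3.65), Rorb 4.04 in replicate 2 of the switched group (nearest 3.81) and Nr4a3 3.52 in replicate 6 at 12 months (nearest 3.34). Nr2f1 was 4.12 in replicate 5 at 12 months (nearest 4.34). Nr3c1, the glucocorticoid receptor gene, was 8.5 in replicate 2 of the switched group, where the nearest liver had 8.74. Ppard was 8.04 in replicate 5 at 24 months (nearest 7.84), and Nr1h4 was 10.48 in replicate 7 at 24 months (nearest 10.36). Nr6a1 was 7.25 in replicate 4 at 6 months, where the nearest liver had 6.99.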

How the results depend on the processing

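The count of receptors for 24 against 6 months, 1 in the text, was 0 with only the groups compared, with quantile normalisation repeated, with arrays centred on their median and in prefix G150 alone. Over all probe sets 1681 were called as reported, and 736, 1664, 1661 and 194 in these settings. The receptor count was 3 without the prefix term, without the lowest 30 percent of probe sets and with 1-gene probe sets alone (Rara, Esrrg and Nr4a2 each time). It was 4 with array weights or without the 2 arrays with an added name suffix. Probe sets called numbered 1551, 2130 and 1780 in the first 3 of these settings, and 2264 and 2271 in the last 2. For 12 against 6 months the receptor count was 0 in the text and 1 (Rara) without the lowest 30 percent, with array weights and with 1-gene probe sets alone. There 210 probe sets were called as reported, and 313, 518 and 332 in these settings. The F test's 3 became 0 in prefix G150 alone and 1 with the replicate block. Probe sets passing the F test numbered 2871 as reported, 374 in G150 alone and 1658 with the replicate block. Leaving out 1 liver gave 0 to 4 receptor calls for 24 against 6 months, 0 to 1 for 12 against 6 and 0 to 5 for the F test. Over all probe sets these fits called 831 to 2370, 7 to 546 and 1744 to 3411. Without replicate 7 at 24 months, which carries a suffix, Rxrg, Rara, Esrrg and Hnf4a passed for 24 against 6 months. For 24 against 12 months and for the switched group every setting run gave 0 receptor calls. Over all 35556 probe sets these settings called 0 to 124 for 24 against 12 months and 0 to 36 for the switched group. Few probe sets of any kind passed there. The correlation of Thrb with its targets turned to -0.35 in prefix G150; there r was 0.43 for Ppara, 0.44 for Nr1i2 and 0.46 for Rarb, none past the threshold, and Nr1i2 fell to 0.37 without 2 livers. The causes were not tested, apart from the smaller number of livers or probe sets by construction. Same-numbered livers did not deviate together (r of -0.14 to 0.14), so a paired analysis has no basis; with the replicate block Nr4a2 had -0.50 (limma, adjusted p = 0.0798) and Hnf4a passed alone, 1 call. Every receptor has 1 probe set, so another one could not be tried, and the planned correlation for Nr1i3 was not run.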

Other observations

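Among 5 further nuclear receptor genes measured outside the 39, none passed in limma in any of the 4 comparisons. Pparg, which drives lipid storage, had lowest, median and highest livers of 8.14, 9.08 and 9.28 in the switched group, 7.23, 7.64 and 8.46 at 6 months, 7.43, 8.23 and 8.64 at 12 months, with 7.91, 8.09 and 9.22 at 24 months. It differed by 0.63 between 24 and 6 months (adjusted p = 0.12). Nr0b2, the bile-acid-induced repressor SHP, differed by -0.61 (adjusted p = 0.345), with livers of 6.75 to 9.07 at 24 months and 7.94 to 9.3 at 6 months; it also counts among the FXR targets.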
